A study of Mus musculus with 13 samples.

Results

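Expression of 9 complement genes was followed in the CD45- stroma of the thymus at steady state and after sublethal total body irradiation (TBI). The genes were C1ra, C1s1, C4b, C2, C3, Cfb, Cfp, Serping1 and Cd55, and each was found by its mouse symbol among the 53379 genes of the count table. All 9 passed the filter on low counts, as did 19984 genes in all. The libraries were made from polyA RNA of CD45- thymic stroma cells of wild type C57BL/6 mice aged 2 months. There were 4 libraries at steady state, from mice labelled untreated and called PBS controls in the count table, and 3 libraries for each of days 1, 4 and 7 after TBI. The labels name no transgene and no agent besides. The steady-state libraries carry the day and replicate that their PBS columns give, because the table does not say which numbered sample each of them is. The sources do not say whether a library came from 1 mouse or several, so the p-values measure the spread between these libraries only.

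Complement is a cascade of plasma proteins that coats targets and calls in phagocytes. Its classical pathway starts when C1q with its proteases C1r and C1s cuts C4 and C2, and its alternative pathway runs through factor B (Cfb), factor D (Cfd) and properdin (Cfp). Both meet at C3, and inhibitors such as C1 inhibitor (Serping1) and CD55 hold the cascade back. Much of the circulating protein comes from the liver, and fibroblasts, mesothelial cells and macrophages also make several components in tissues.

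Total counts per library ran from 15721866 to 52056896, so counting error was small for most of the genes. The lowest and highest counts in a library were 187624 and 958457 for C3, 377 and 2001 for Cfb, and 20 and 394 for Cfp, the sparsest of the 9. Levels are given as normalized CPM, the share of a library's counts on a scale common to all libraries. A gene was called changed where edgeR's quasi-likelihood test gave an adjusted p-value (Benjamini-Hochberg, over all genes tested) no higher than 0.05, and intervals of log2 fold changes are at 95%. Days 1, 4 and 7 were compared with the same 4 steady-state libraries. In such bulk libraries, fewer cells of a type and less RNA per cell cannot be told apart. PBS day 1 replicate 2 had the lowest level at steady state of 8 of the 9 genes, and day 7 replicate 2 had the lowest level at day 7 of 8 of the 9.

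The stroma held abundant complement transcripts before irradiation, and the 9 genes took up between 1.17% and 2.21% of all counts in the steady-state libraries. C3 was the main one, with 50.6% to 72.3% of the counts of the 9 genes and between rank 4 and rank 7 among all genes. Divided by exonic length, the mean levels at steady state (n = 4) were 2291 ± 703 (SD) CPM per kb for C3 and 1452 ± 635 for Serping1. They were followed by C1s1 at 394 ± 142, C4b at 258 ± 194 and C1ra at 184 ± 70.7 CPM per kb. The lower genes were C2 at 44.1 ± 20.6, Cd55 at 30.1 ± 9.34, Cfb at 5.84 ± 2.52 and Cfp at 2.01 ± 1.13 CPM per kb. Of the neighbours in this order, C3 and Serping1, C1s1 and C4b, C4b and C1ra, and C2 and Cd55 were not separated by 1 SD on either side. The places of Cfb, C2 and C1s1 are affected by exons they share with other genes, as described below. After irradiation the 9 genes made up 1.45% to 1.70% of counts at day 1, 2.07% to 2.96% at day 4 and 1.34% to 2.83% at day 7.

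**Figure D1:**
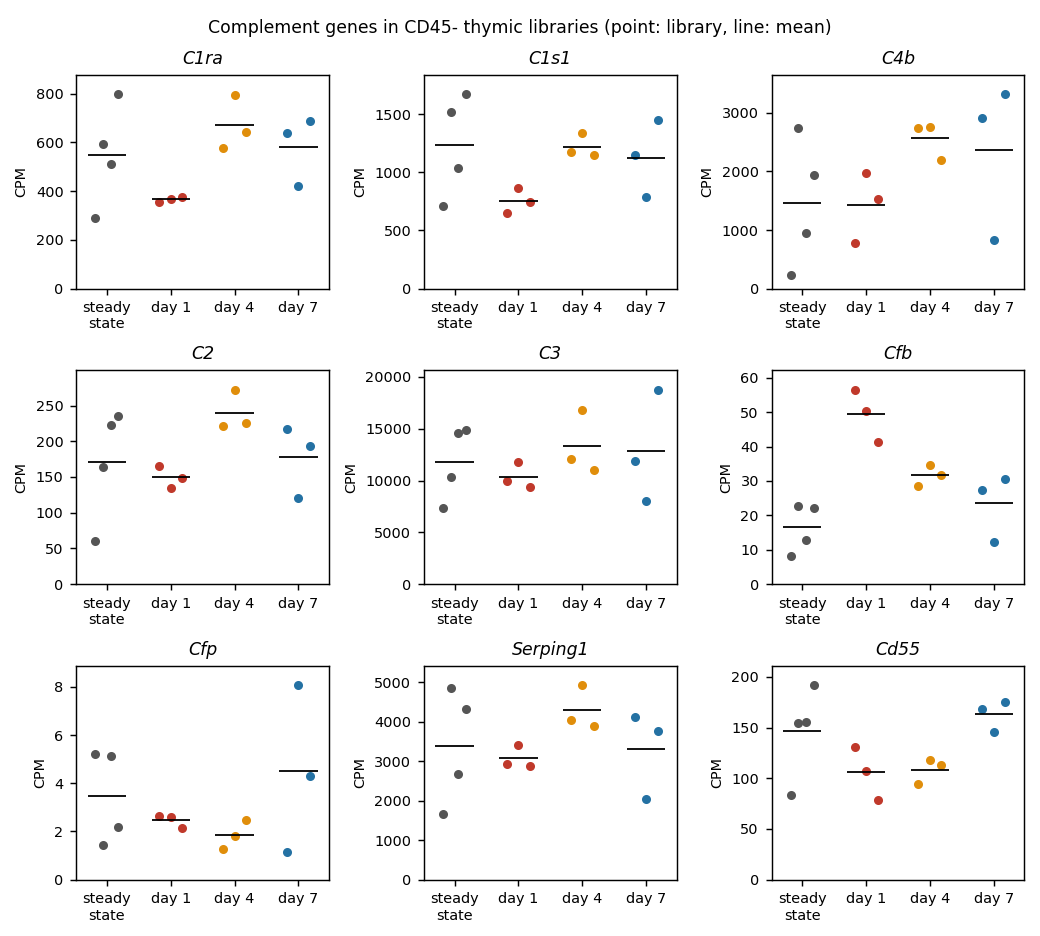
Each panel plots the level of a complement gene (CPM on the vertical axis, from 0) in the 4 steady-state libraries and the 3 libraries of each day after TBI; points are libraries and lines are means. Cfb at day 1 lies between 41.3 and 56.6 CPM, above all 4 steady-state libraries, while the day 1 points of the other 8 genes lie among or below theirs. Ranges of day 1 and steady state did not overlap for 15.8% of all genes tested.

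The only member called against steady state at any of the 3 days was Cfb, which rose at day 1. Against steady state at day 1, 1 of the 9 genes was called, beside 2.35% of all genes tested, and it was called as higher, beside 1.68% of all genes. None of the 9 was called at day 4, when 0.290% of all genes were, or at day 7, when 0.00500% were. These shares moved with single libraries, and without day 7 replicate 1 the calls over all genes went from 58 to 226 at day 4 and from 1 to 622 at day 7. For those comparisons the count of members at an unadjusted p below 0.05 in edgeR was 1 (Cfb) at day 4 and 0 at day 7, beside 13% and 13.5% of all genes. DESeq2 also called 0 members at both days, beside 3.23% and 5.42% of the genes to which it gave an adjusted p-value. The median log2 fold change of the 9 genes was -0.19 at day 1, 0.29 at day 4 and 0.13 at day 7, and that of all genes was -0.10, -0.13 and 0.002. At day 1, the log2 fold change was below 0 for 8 of the 9 genes, of which C4b was at 0.0011 under RLE normalization.

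**Figure D2:**
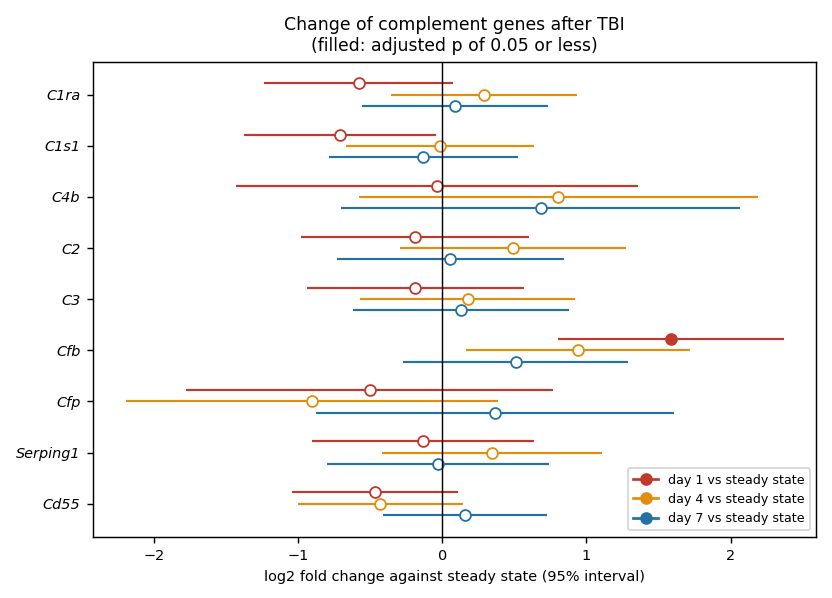
Log2 fold changes of the 9 genes (horizontal axis) against steady state for the 3 days after TBI, with 95% intervals as lines; a filled point has an adjusted p-value of 0.05 or less. Cfb at day 1, at 1.58, is the filled point, and the intervals of all other points except C1s1 at day 1 and Cfb at day 4 include 0.

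The proteases that start the classical pathway, C1ra and C1s1, had lower means at day 1 than at steady state, without a call. C1ra (ENSMUSG00000055172, GRCm38 chr6:124512405-124523443, plus strand) cleaves and activates C1s. Its level was 289 CPM in PBS day 1 replicate 2, 595 in PBS day 4 replicate 2, and 511 and 799 in the PBS libraries of day 7. After TBI it was 355, 370 and 377 CPM at day 1, 575, 794 and 643 at day 4, and 639, 421 and 690 at day 7. The 3 day 1 libraries lay close together, above the lowest steady-state library and below the other 3. The log2 fold change at day 1 was -0.58 with an interval of -1.24 to 0.08 (SE 0.30, edgeR adjusted p = 0.353). C1s1 (ENSMUSG00000038521, chr6:124530345-124542359, minus strand), the protease that cuts C4 and C2, lies next to C1ra in the genome. It measured 708, 1521, 1034 and 1673 CPM at steady state, in the same order of libraries. It measured 648, 869 and 745 CPM at day 1, 1170, 1339 and 1152 at day 4, and 1148, 784 and 1447 at day 7. The day 1 libraries lay around the lowest steady-state library and below the other 3, with a log2 fold change of -0.71 (interval -1.38 to -0.05, unadjusted p = 0.0379, edgeR adjusted p = 0.261). Without PBS day 1 replicate 2 and day 7 replicate 2, the day 1 values were -0.91 for C1s1 and -0.80 for C1ra, also not called (edgeR adjusted p = 0.0860 and 0.0992). At day 4 the log2 fold changes from steady state were 0.29 for C1ra and -0.02 for C1s1, and the intervals reached from -0.36 to 0.94 and from -0.67 to 0.64.

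For both proteases every library of day 4 lay above every library of day 1. Ranges of these days did not overlap for 26.3% of all genes tested. The log2 fold change of day 4 over day 1 was 0.87 for C1ra (unadjusted p = 0.0184, adjusted p = 0.247 in edgeR) and 0.69 for C1s1 (adjusted p = 0.371), and neither was called. Among the members C1ra and C1s1 were also the most alike over the 13 libraries, with a root mean square difference of 0.18 between their centred log2 levels. C1s1 was 202% to 256% of C1ra in the steady-state libraries, 183% to 235% at day 1, 169% to 203% at day 4 and 180% to 210% at day 7. These are ratios of CPM not divided by length. Both have near copies in the genome. Of the 50-base words in the transcripts of C1ra, 50.8% also occurred in another gene, C1rb or Gm18840, and for C1s1 35.1% did, in C1s2 or Gm16567. Gm16567 overlaps C1s1 in the genome and shares 18.4% of its exonic bases. Reads that fit copies equally well or lay in shared exons were not counted, so the levels of both proteases are lower bounds in that respect. The copies themselves were low, with means at steady state of 0.652 CPM for C1rb and 3.01 CPM for C1s2.

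To let the start regions of abundant members be read beside their levels, the 250 bases before the start of C1s1 (chr6:124542360-124542609, minus strand) and of C3 (chr17:57228137-57228386, minus strand) are given, from the RefSeq promoter table on GRCm38.p6.
C1s1: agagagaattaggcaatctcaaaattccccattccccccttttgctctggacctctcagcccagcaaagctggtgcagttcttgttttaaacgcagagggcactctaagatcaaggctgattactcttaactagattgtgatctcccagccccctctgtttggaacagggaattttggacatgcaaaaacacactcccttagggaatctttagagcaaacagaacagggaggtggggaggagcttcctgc
C3: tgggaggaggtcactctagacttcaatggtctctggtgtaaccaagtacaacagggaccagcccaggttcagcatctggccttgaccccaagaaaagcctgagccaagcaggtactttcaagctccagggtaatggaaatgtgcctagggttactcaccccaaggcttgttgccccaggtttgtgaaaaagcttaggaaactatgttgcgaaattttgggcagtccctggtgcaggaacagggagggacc
That table held 5 of the 9 genes (C3, Cfp, C1s1, C1ra and Cd55), with 6 start regions because C1s1 had a pair of starts. These 250 bases were searched on both strands for an interferon-stimulated response element (GAAA, any 2 bases, GAAA), a gamma-activated site (TTCNNNGAA) and the NF-kB motif. None of the 6 held any of these letters. Over all 32851 promoters in the table, 2.98% held the first, 7.02% the second and 7.25% the NF-kB motif. C4b, C2, Cfb and Serping1 were not matched.

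The substrates of C1s, C4b and C2, were not called against steady state at any day. C4b (ENSMUSG00000073418, chr17:34728380-34743882, minus strand) encodes complement C4, whose cleaved form binds targets and carries C2. It was the most variable of the abundant members at steady state, with 235 CPM in PBS day 1 replicate 2, 2746 in PBS day 4 replicate 2, and 954 and 1944 in the day 7 PBS libraries. The levels after TBI were 785, 1979 and 1528 CPM at day 1, 2737, 2767 and 2195 at day 4, and 2917, 838 and 3322 at day 7. All 3 groups after TBI overlapped the steady-state range. The log2 fold changes were -0.04 at day 1, 0.80 at day 4 and 0.68 at day 7, and the widest interval, at day 1, ran from -1.43 to 1.36. The lack of a call therefore does not show that C4b was unchanged. Its near copy C4a holds 34.6% of its 50-base words and had a mean of 0.539 CPM at steady state. C2 (ENSMUSG00000024371, chr17:34862604-34898265, minus strand) supplies the protease of the classical C3 convertase. The 4 steady-state libraries had 60.7, 163, 223 and 235 CPM, in the order used above. Its levels after TBI were 166, 134 and 148 CPM at day 1, 222, 272 and 226 at day 4, and 217, 121 and 194 at day 7. Day 4 was above day 1 in every library, but neither this difference (log2 fold change 0.68, adjusted p = 0.478) nor that from steady state at day 4 (0.49, interval -0.29 to 1.28, adjusted p = 0.543) was called by edgeR.

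C3 (ENSMUSG00000024164, chr17:57203970-57228136, minus strand), the protein at which all pathways meet, stayed among the 7 most abundant genes of each library. It measured 7344, 10329, 14547 and 14910 CPM at steady state. The 3 libraries of day 1 had 9910, 11799 and 9353 CPM, those of day 4 had 12109, 16833 and 10991, and those of day 7 had 11848, 8046 and 18786. Every group overlapped the others. The log2 fold changes from steady state were -0.19 at day 1 (interval -0.94 to 0.56), 0.18 at day 4 (interval -0.57 to 0.92) and 0.13 at day 7 (interval -0.62 to 0.88). The edgeR adjusted p-values were 0.826, 0.837 and 0.961. Changes within these intervals remain possible, and the bounds are not a limit of detection.

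Cfb (ENSMUSG00000090231, chr17:34856374-34862518, minus strand) encodes factor B, the protease of the alternative pathway convertase, and is the direct neighbour and relative of C2. At steady state it measured 8.27 CPM in PBS day 1 replicate 2, 22.8 in PBS day 4 replicate 2, and 12.9 and 22.1 in the day 7 PBS libraries. At day 1 after TBI the 3 libraries had 56.6, 50.4 and 41.3 CPM. The lowest day 1 library was above the highest of steady state. Among the 9 genes the ranges of day 1 and steady state did not overlap for 1, beside 15.8% of all genes tested. The means were 49.4 ± 7.68 (SD, n = 3) and 16.5 ± 7.11 (SD, n = 4) CPM, a rise with a log2 fold change of 1.58 (SE 0.36, interval 0.80 to 2.37, edgeR adjusted p = 0.0378). This call depended on single libraries. It was made in 3 of the 13 fits that each left out 1 library, those without PBS day 4 replicate 2, day 7 replicate 1 or day 7 replicate 2, while the log2 fold change stayed between 1.41 and 1.78 and the adjusted p-value between 0.0210 and 0.142. The call was lost without any other steady-state library, without any library of day 1 or day 4, and without day 7 replicate 3. With PBS day 1 replicate 2 and day 7 replicate 2 both left out, the log2 fold change was 1.35 (adjusted p = 0.0190). With only the libraries of day 1 and steady state in the fit, the adjusted p-value was 0.0984 at a log2 fold change of 1.53, and DESeq2 gave 0.00184.

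After day 1 the level of Cfb was lower again. The 3 libraries of day 4 had 28.6, 34.5 and 31.8 CPM, still above every steady-state library. Ranges of day 4 and steady state did not overlap for 1 of the 9 genes, beside 14.7% of all genes tested. The log2 fold change of Cfb at day 4 was 0.94 and was not called (interval 0.16 to 1.72, unadjusted p = 0.0217, edgeR adjusted p = 0.312). The libraries of day 7 had 27.5, 12.3 and 30.7 CPM, which overlapped steady state, with a log2 fold change of 0.51 (interval -0.27 to 1.29, adjusted p = 0.653 in edgeR). Against day 1, the log2 fold change was -0.64 at day 4 (adjusted p = 0.506) and -1.07 at day 7 (adjusted p = 0.113), and neither passed edgeR's threshold. In both cases all libraries of the later day were below those of day 1. Ranges did not overlap in these comparisons for 26.3% and 27.5% of all genes tested.

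Cfb was also set against its neighbour C2 and against C3 within each library, a comparison added after the values had been seen. It was 5.78% to 13.9% of C2 at steady state and 27.9% to 37.5% at day 1. The ratio was 12.7% to 14.1% at day 4 and 10.2% to 15.8% at day 7, so day 1 stood apart from the libraries of all other groups. Relative to C3, Cfb was 0.0886% to 0.220% at steady state, 0.427% to 0.571% at day 1, 0.205% to 0.290% at day 4 and 0.153% to 0.232% at day 7. These ratios carry no test, since the day 1 rise of Cfb was known when they were formed. They are of CPM not divided by length, and Cfb and C2 share exons with other genes, as described below. The ratios therefore compare libraries and do not give the amount of one transcript relative to the other.

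**Figure D3:**
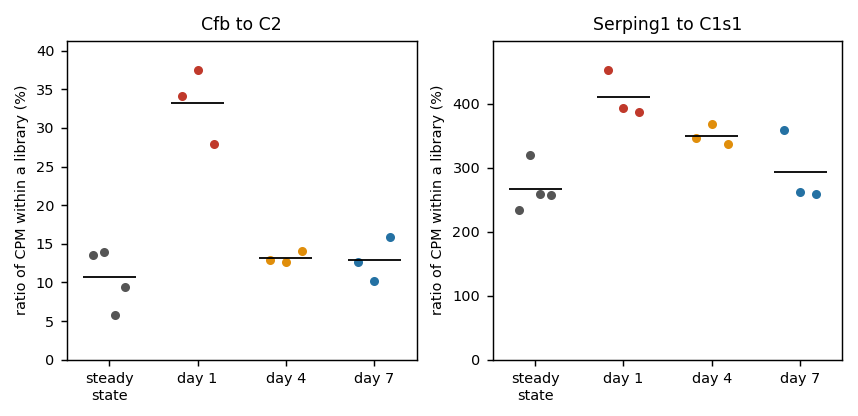
The left panel plots Cfb as a percent of C2 and the right panel Serping1 as a percent of C1s1, in each library (points, vertical axes from 0) by condition, with the mean as a line. Cfb was 27.9% to 37.5% of C2 at day 1 and at most 15.8% in any other library, and Serping1 was 388% to 454% of C1s1 at day 1 and 234% to 320% at steady state. The ratios are of CPM not divided by length.

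Exons shared with other genes set a limit on the levels of Cfb and C2. Of the exonic bases of Cfb, 79.5% are also exons of Gm20547, a readthrough gene that spans C2 and Cfb, which leaves 579 bases of its own. For C2 46.9% are shared, with Gm20547 and Zbtb12. Reads lying in a shared stretch were assigned to no gene, which lowers the level per length. Per kb of unshared exon, a scale added after the overlaps had been seen, Cfb measured 28.5 ± 12.3 (SD, n = 4) CPM at steady state and 85.4 ± 13.3 (SD, n = 3) at day 1. C2 measured 83.0 ± 38.8 and 72.7 ± 7.72 CPM on the same scale. Thus Cfb lay below C2 per length at steady state by more than 1 SD of each, and the 2 genes were not separated by their SDs at day 1. Cd55 measured 30.8 ± 9.54 (SD, n = 4) CPM at steady state on this scale, so Cfb and Cd55 were not separated there. C2 and Cd55, not separated at steady state by the whole exonic length, were separated by 1 SD on either side on this scale.

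Markers of other cells that make complement or enter injured tissue were summed in the same libraries. The summed level of 7 neutrophil markers was 17.4 to 39.8 CPM at day 1 and 4.55 to 26.3 at steady state, 3.94 to 6.20 at day 4 and 1.27 to 6.86 at day 7. Of 6 neutrophil markers tested, Cxcr2 was called higher at day 1, and up to 3 of the 7 were at 0 in a steady-state library. The 6 hepatocyte markers summed to 4.74 to 12.7 CPM at day 1 and 2.33 to 17.2 at steady state. The 7 macrophage markers summed to 77.8 to 129 and 63.3 to 169 CPM, and 1 of them, Fcgr1, was called higher at day 1, from a mean of 0.0687 to 0.821 CPM. Of 10 fibroblast markers, Pdgfrb was called higher at day 1, from 434 to 1394 CPM. The log2 fold change was below 0 for 8 of the 10, with a median of -0.58. The part of these cells in the level of Cfb was not tested. The tag that ends each column of the count table differs between libraries, and its meaning is not given in the sources used here. Among the libraries whose tag starts with neither k3 nor kk, Cfb was 8.27 and 12.9 CPM at steady state and 50.4 and 41.3 CPM at day 1. With a tag that starts with kk it was 22.1 CPM in PBS day 7 replicate 2 and 56.6 CPM in day 1 replicate 1. No library of day 1 had a tag that starts with k3, so the k3 libraries allow no such comparison. With the tag as a term in the edgeR fit the log2 fold change was 1.72 (adjusted p = 0.0166). Whether the tag had a part in the level of Cfb was not tested.

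Cfp (ENSMUSG00000001128, chrX:20925454-20931555, minus strand) encodes properdin, which stabilizes the alternative convertase and is made mainly by leukocytes. It was near the bottom of the measured range, at 5.22, 1.43, 5.12 and 2.18 CPM at steady state. The levels at day 1 were 2.66, 2.60 and 2.16 CPM, those at day 4 were 1.29, 1.79 and 2.46, and those at day 7 were 1.13, 8.07 and 4.31. All groups overlapped steady state, and the log2 fold changes of -0.50, -0.91 and 0.36 were not called (edgeR adjusted p = 0.709, 0.502 and 0.917). Its library order was unlike that of the other members. PBS day 1 replicate 2 and day 7 replicate 2, the lowest of their groups for the other 8 genes, were the highest of their groups for Cfp. The same day 7 library had the highest sum of 10 thymocyte markers, at 4370 CPM, against 1884 and 185 CPM in the other day 7 libraries. Whether leukocyte RNA in these libraries contributed to Cfp was not tested.

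The regulators Serping1 and Cd55 were not called against steady state at any day. Serping1 (ENSMUSG00000023224, chr2:84765387-84775444, minus strand) encodes C1 inhibitor, which inactivates C1r and C1s. Its levels were 1657, 4862, 2676 and 4312 CPM at steady state. They were 2941, 3417 and 2888 CPM at day 1, 4049, 4929 and 3883 at day 4, and 4131, 2053 and 3757 at day 7. All groups overlapped steady state, with log2 fold changes of -0.13, 0.34 and -0.03 (edgeR adjusted p = 0.882, 0.665 and 0.994). Against its target C1s1, Serping1 was 234% to 320% at steady state, 388% to 454% at day 1, 337% to 368% at day 4 and 260% to 360% at day 7, a description added with no test. This ratio is also of CPM not divided by length.

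Cd55 (ENSMUSG00000026399, chr1:130439027-130462744, minus strand) encodes decay-accelerating factor, a membrane protein that breaks up C3 convertases. The steady-state libraries had 83.6, 154, 155 and 192 CPM. The libraries after TBI had 131, 107 and 79.1 CPM at day 1, 94.7, 118 and 113 at day 4, and 169, 145 and 176 at day 7. Days 1 and 4 lay below 3 of the 4 steady-state libraries. Day 1 reached below the lowest, PBS day 1 replicate 2, and day 4 lay above it. The log2 fold changes were -0.47 at day 1 (interval -1.04 to 0.11), -0.43 at day 4 (interval -1.004 to 0.144) and 0.16 at day 7 (interval -0.41 to 0.73), none of them called by edgeR (adjusted p = 0.395, 0.482 and 0.926). Day 7 was above day 1 in every library, with a log2 fold change of 0.63 (unadjusted p = 0.0455, edgeR adjusted p = 0.197). Ranges of these days did not overlap for 3 of the 9 genes, beside 27.5% of all genes tested.

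Between the days after TBI no member was called by edgeR. From day 1 to day 4 the ranges of 6 of the 9 genes did not overlap, beside 26.3% of all genes tested. C1ra, C1s1, C4b, C2 and Serping1 were higher at day 4 in every library and Cfb was lower. The calls over all genes were 1.43% for day 4 against day 1, 8.13% for day 7 against day 1 and 3.90% for day 7 against day 4. Among the members, 1 gene (C1ra), 2 genes (Cfb and Cd55) and 0 genes had an unadjusted p below 0.05, beside 13.7%, 23.9% and 18.7% of all genes. DESeq2 called 0 members in each comparison, beside 5.11%, 14.7% and 9.61% of the genes it adjusted for. The median log2 fold change of the members was 0.48 for day 4 over day 1 and 0.58 for day 7 over day 1, with medians of all genes of -0.10 and 0.05. For day 7 over day 4 it was -0.12, with a median of all genes of 0.11.

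The other genes of the complement system were measured in the same libraries. Of 43 such genes, 36 were tested, and edgeR called 0 of them against steady state at each of the 3 days. The count at an unadjusted p below 0.05 was 8 at day 1, where 17.2% of all genes passed. It was 3 at day 4 and 4 at day 7, where 13% and 13.5% of all genes passed. DESeq2 called 3 at day 1 (C7, C5ar1 and Cr2), where it called 7.76% of the genes it adjusted for. It called 2 at day 4 (Vtn and Cr2) and 4 at day 7 (Mbl2, Hc, C4bp and Cr2), beside 3.23% and 5.42%. The mean of C7 fell from 345 at steady state to 168 CPM at day 1, and that of Cr2 from 10.2 to 1.21. That of C5ar1 rose from 0.513 to 2.36 CPM. At day 4 the mean of Vtn was higher than at steady state (118 against 48.4 CPM) and that of Cr2 lower (1.97 CPM). The genes called at day 7 were all lower than at steady state, with day 7 means of at most 1.34 CPM. The 3 genes of C1q, the recognition part of the classical pathway, were low although its proteases were abundant. C1qa, C1qb and C1qc summed to 4.70 to 14.6 CPM at steady state, 5.99 to 7.66 at day 1, 4.97 to 8.31 at day 4 and 2.63 to 31.3 at day 7. The soluble regulator Clu was high, with a mean at steady state of 2004 CPM, and so was the terminal component C7, at 345 ± 149 (SD, n = 4) CPM. Cfd, the protease that cuts factor B, ranged from 11.1 to 613 CPM between the steady-state libraries. The other terminal components were near 0, with means at steady state of at most 3.51 CPM (C8g).

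Between days after TBI, 3 of these other genes passed the threshold in edgeR, and they are named here because their values were seen. Vtn, which encodes vitronectin, an inhibitor of the terminal complex, rose from 35.9 ± 10.9 CPM at day 1 to 118 ± 25.6 at day 4 (log2 fold change 1.72, adjusted p = 0.0193) and fell to 44.9 ± 11.4 at day 7 (-1.39 against day 4, adjusted p = 0.0340; SD, n = 3 each). Itgb2, a chain of complement receptors on leukocytes, was higher at day 7 than at days 1 and 4 (log2 fold changes 2.80 and 3.40, adjusted p = 0.0431 and 0.0339), with 8.14 to 143 CPM over the day 7 libraries and 8.64 to 11.4 over those of day 1. The sum of the thymocyte markers also ran from 185 to 4370 CPM at day 7, and its part in Itgb2 was not tested. Mbl2, a lectin that starts the lectin pathway, was lower at day 7 than at day 1 (log2 fold change -3.59, adjusted p = 0.0247), at levels of at most 1.05 CPM in any library. Hepatocyte markers were lower in the same comparison, with Apoa1, Ttr and Fgb called among 5 tested and sums of 4.74 to 12.7 CPM at day 1 and 0.533 to 1.00 at day 7, and their part in Mbl2 was not tested. These calls moved with single libraries. Of the 13 fits that each left out 1 library, edgeR called Vtn in 9 for day 4 over day 1 and in 9 for day 7 over day 4, Itgb2 in 5 for day 7 over day 1 and in 7 for day 7 over day 4, and Mbl2 in 7. Vtn was lost without day 1 replicate 1 or 2 in the first comparison, without day 7 replicate 2 or 3 in the second, and without day 4 replicate 2 or 3 in both. Mbl2 was lost without any single library of day 1 or day 7. Itgb2 was lost without any library of day 1, without day 4 replicate 2 or 3, day 7 replicate 2 or 3, or PBS day 7 replicate 1 for day 7 over day 1, and without day 1 replicate 3, any library of day 4, or day 7 replicate 2 or 3 for day 7 over day 4. Without day 7 replicate 2 the log2 fold changes of Itgb2 were 1.69 and 2.23, neither of them called by edgeR.

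The members were set beside 2 lists of genes that respond to inflammation. Of 12 interferon-stimulated genes, 11 rose at day 1 by edgeR's test, with a median log2 fold change of 2.91. Of 11 acute-phase genes, 3 rose (Lcn2, Saa1 and Saa2), with a median of 2.60. Lcn2, which binds bacterial siderophores, was at 8.04 to 37.7 CPM at steady state and 736 to 2063 at day 1. The median was -0.19 for the complement members and -0.15 for the other complement genes. Both lists were chosen with their response in these libraries known, so these counts are a description. At day 4 neither list had a call against steady state, and 10 of the 12 interferon-stimulated genes and 3 of the 11 acute-phase genes were called lower than at day 1.

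**Figure D4:**
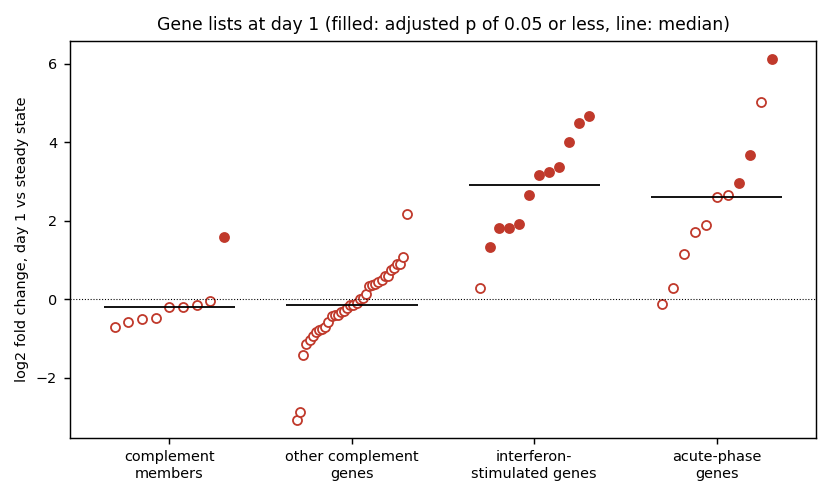
Log2 fold changes at day 1 against steady state (vertical axis) of the 9 complement members, the other 36 complement genes tested, 12 interferon-stimulated genes and 11 acute-phase genes; each point is a gene, filled where the adjusted p-value was 0.05 or less, and lines are medians. Cfb is the filled complement point, at 1.58, while 11 interferon-stimulated genes and 3 acute-phase genes are filled.

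The genes whose centred log2 levels were closest to each member over the 13 libraries were sought among 11372 genes. For Cfb they were Anxa8 and Eda2r, with root mean square differences of 0.24 and 0.26. C3 was closest to Zfhx4 (0.17) and Pianp (0.21), C4b to Ugt1a7c (0.37) and Gpr39 (0.45), and C2 to Ces2g (0.16) and Dab2 (0.22). Gng7 was the closest gene to both C1s1 (0.16) and C1ra (0.15), followed by Scrn1 (0.17) and Glb1l (0.19). Serping1 was closest to Clip3 and Tmem150a (0.18 each), and Cd55 to Kank1 (0.21) and Zfp970 (0.22). Cfp was closest to Inpp5d (0.24) and Grk2 (0.27), and among the members Cfp and C4b were the farthest apart, at 1.59.

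Marker sums of other cells differed between the libraries. The 9 complement genes summed to 10391 CPM in PBS day 1 replicate 2 and 20118 to 24089 CPM in the other 3 steady-state libraries. That library also had the lowest sums of 10 fibroblast markers, at 19812 CPM against 35856 to 149316, and of 5 mesothelial markers, at 554 CPM against 2371 to 4232. The sums were ordered otherwise in other libraries. PBS day 4 replicate 2 and PBS day 7 replicate 1 had complement sums of 20396 and 20118 CPM beside fibroblast sums of 149316 and 35856 CPM. Replicate 2 of day 1 and replicate 2 of day 4 had the highest complement sums of their groups and the lowest mesothelial sums, at 1511 and 2555 CPM. At day 7, replicate 2 had the lowest sum of the complement genes, 12428 CPM against 21097 and 28405, and the lowest sum of mesothelial markers, 1855 CPM. Over the groups, the mesothelial markers summed to 1511 to 1777 CPM at day 1, 2555 to 3747 at day 4 and 1855 to 3851 at day 7. The fibroblast markers summed to 32359 to 89027, 47241 to 60346 and 33198 to 62492 CPM on these days. Markers of thymic epithelial and endothelial cells were present in every library, at 677 to 3848 and 1066 to 1617 CPM. The thymocyte markers, which include Ptprc (CD45), were 212 to 689 CPM at steady state and 26.0 to 40.6 at day 4. The part of these shifts in the levels of the complement genes was not tested.

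**Figure D5:**
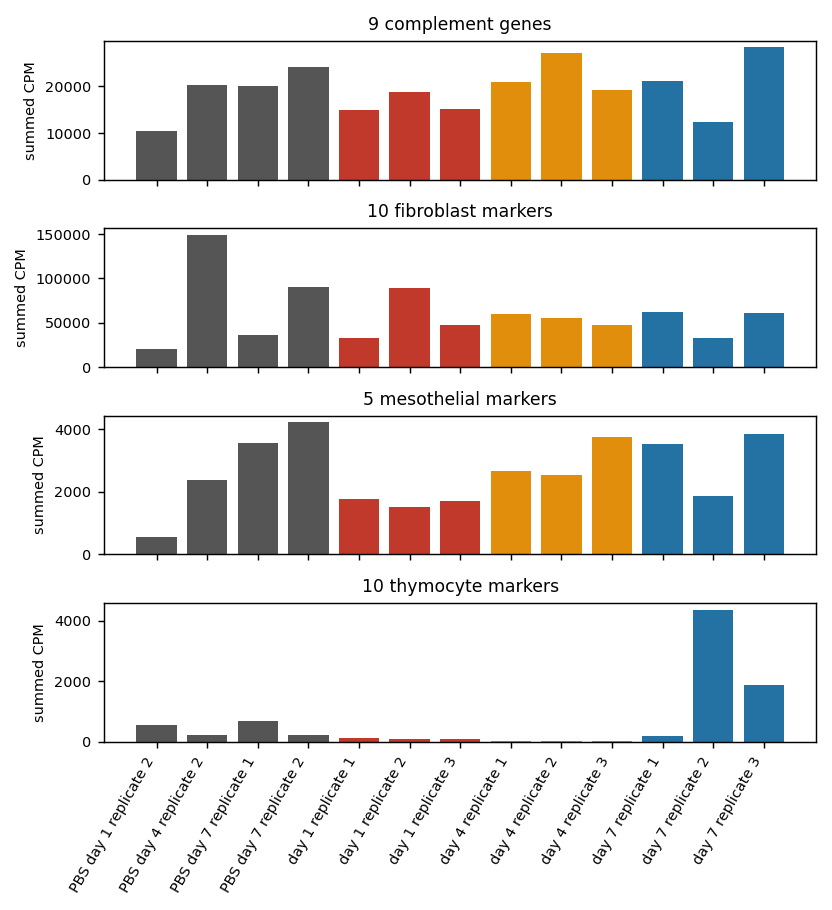
Summed levels (CPM, vertical axes from 0) of the 9 complement genes and of fibroblast, mesothelial and thymocyte markers in each of the 13 libraries, coloured by condition. PBS day 1 replicate 2 is lowest at steady state for the complement, fibroblast and mesothelial sums, and day 7 replicate 2 has the highest thymocyte sum, 4370 CPM.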

How the data were processed

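Bulk RNA-seq of 13 libraries was analysed. The authors used Trimmomatic 0.38 for trimming, STAR 2.7.0e for alignment to GRCm38.p5 and featureCounts 1.6.3 for counting per gene (default settings, which ignore strand and drop reads that fit several places or genes); versions are from the submitters' processing notes. The deposited values are whole-number counts per gene, not normalized. The table also holds the exonic length of each gene, and 0 columns of per-sample values were left out. Symbols came from GENCODE M21, with 53274 of 53379 identifiers matched. Coordinates and exons, on GRCm38, were those given with the counts.

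All libraries entered 1 fit in edgeR 4.0.16 (R 4.3.3) with a term for condition, filterByExpr() by condition, TMM normalization and the quasi-likelihood F-test, with Benjamini-Hochberg adjustment over 19984 genes. Intervals use the standard error (the log2 fold change divided by the root of F) and the t quantile. Likeness between genes was the root mean square difference of centred log2(CPM + 0.5), among genes with a mean of at least 5 CPM. The text names all members, wider complement genes called against steady state, and the 2 genes most alike to each member. As no wider gene was called there, those named were chosen after their values were seen, by calls between days, by DESeq2 or by level. The members and all lists were chosen with earlier results of these data known. The edgeR fit of day 1 against steady state was tested on simulated counts with known changes, all larger than that of Cfb. The other steps and the alternatives were not tested in this way.

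The alternatives were DESeq2 1.42.0, RLE normalization, no filter, a filter of 10 counts in every library, only the conditions compared, the tag of the column names as a term, a block for the replicate number, and fits that each left out 1 library. Leaving out PBS day 1 replicate 2 with day 7 replicate 2, a block for the number in the column names, the unshared lengths and the ratios were added after seeing the data. Tables and plots used Python 3.11.15 and pandas 2.3.3.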

Additional observations from a re-analysis of the deposited data

How the results depend on the processing

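The rise of Cfb at day 1 kept its direction in every alternative run. The count of members called at day 1 went from 1 to 0 with only the conditions compared and with a block for the number in the column names, and was 0 to 1 with each library left out in turn. At all other comparisons it was 0 under every alternative. DESeq2, RLE normalization, no filter, the filter of 10 counts, the tag term and the fit without PBS day 1 replicate 2 and day 7 replicate 2 kept the call (adjusted p from 0.00184 to 0.0355).

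Signs that turned belonged to members with no call in either fit, and the cause was not tested. Against steady state, C4b at day 1 was 0.0011 with DESeq2, 0.0011 with RLE and 0.28 with the tag term, and C1s1 at day 4 was 0.054 with DESeq2, 0.054 with RLE, 0.081 with only the conditions compared and 0.047 with the tag term. The tag term also turned Serping1 at day 1 (0.035) and, at day 7, C2 (-0.031), C1ra (-0.043) and Cd55 (-0.0030), and Serping1 for day 7 over day 1 (-0.23). Without PBS day 1 replicate 2 and day 7 replicate 2, Cfp and Serping1 turned at day 7 against steady state (-0.073 and 0.024).

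With each library left out, and with PBS day 1 replicate 2 and day 7 replicate 2 both left out, the log2 fold changes that turned against steady state ran as follows. At day 1 they were -0.48 to 0.016 for C2, -0.39 to 0.45 for C4b and -0.36 to 0.097 for Serping1. At day 4 they were -0.16 to 0.17 for C1s1 and -0.028 to 0.40 for C3. At day 7 they were -0.13 to 0.33 for C1ra, -0.34 to 0.10 for C1s1, -0.22 to 0.30 for C2, -0.22 to 0.41 for C3, -0.042 to 0.32 for Cd55, -0.32 to 0.82 for Cfp and -0.25 to 0.26 for Serping1. Cd55 for day 4 over day 1 ran from -0.13 to 0.22, C3 and Serping1 for day 7 over day 1 from -0.096 to 0.60 and -0.086 to 0.39, and C1s1, C3 and C4b for day 7 over day 4 from -0.42 to 0.069, -0.51 to 0.18 and -0.52 to 0.26.

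The labelled replicate number was used as a block in the 9 libraries after TBI, since the steady-state columns could not be matched to the labelled numbers. The deviations of same-numbered libraries from their condition means had a mean correlation of -0.252, against 0.105 for other pairs. Because each deviation was taken from the mean of its own condition, these averages tend to opposite signs. This check therefore cannot decide whether the numbers pair the libraries. The block left 0 members called in the 3 comparisons, with Cfb for day 4 over day 1 at -0.64, and 56, 640 and 0 genes called over all genes in place of 285, 1625 and 779. A block for the number in the column names, steady state included, was added after seeing the data. Under it Cfb at day 1 was 1.54 and was not called (adjusted p = 0.164), C2 and Serping1 at day 7 turned to -0.050 and 0.00065, and 209, 27 and 0 genes were called at days 1, 4 and 7 against steady state and 147, 655 and 95 between days. The calls of Vtn and Itgb2 were lost under both blocks, and that of Mbl2 under the second. The tag term removed both calls of Vtn, that of Mbl2 and that of Itgb2 for day 7 over day 1. With only the conditions compared, both calls of Itgb2 were lost (edgeR adjusted p = 0.104 and 0.0938). The filter of 10 counts removed that of Itgb2 for day 7 over day 1 and left Mbl2 untested. Leaving out PBS day 1 replicate 2 with day 7 replicate 2 removed both Itgb2 calls. It also removed that of Vtn for day 7 over day 4. Over all genes, day 1 against steady state had 469 calls, 1399 with DESeq2, 228 with only the conditions compared and 1066 with the tag term. Day 4 had 58, 645, 146 and 33 in that order, 250 without a filter and 20 with the filter of 10 counts. Day 7 had 1, 1081, 0 and 0, and 627 without a filter and 0 with that filter. For day 4 over day 1 DESeq2 called 960 and the tag term 163. For day 7 over day 1 DESeq2 called 2940 and the filter of 10 counts 880. For day 7 over day 4 the counts were 1919 with DESeq2, 1265 without a filter, 355 with the filter and 394 with only the conditions compared. With each library left out, the calls ran from 252 to 797, 19 to 226 and 0 to 622 at days 1, 4 and 7 against steady state, and from 87 to 362, 472 to 2043 and 15 to 1507 between days. Cfp had the lowest counts of the members, 20 in a library.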
